A study of Mus musculus with 12 samples.

Results

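The miRNAs described here are the arms and copies of miR-9, miR-124, miR-128, miR-129 and miR-137, 5 families of neural miRNAs. They were found by name, taking every row of those exact numbers with any arm or copy suffix, and there were 12 of them among the 1042 mouse miRNAs in the table. Of these, 11 had at least 10 reads in at least 2 libraries and were tested among 732 miRNAs, while miR-137-5p had 11 reads over the 12 libraries and was not tested. The study sequenced small RNAs of 18 to 30 nucleotides from mouse pluripotent cells made in different ways, to compare their miRNAs.

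Mouse embryonic fibroblasts (MEFs, 3 libraries) came from C57B6/129SvJae F1 mice, and embryonic stem cells (ESCs, 3 libraries) were the line E14 of strain 129/ola. Induced pluripotent stem cells (iPSCs, 2 libraries) were MEFs infected with a doxycycline-inducible lentivirus for c-Myc, Klf4, Oct4 and Sox2. The NT-ESCs (2 libraries) came from nuclear transfer of MEFs into oocytes, and NT-iPSCs (2 libraries) from nuclear transfer of iPSCs, so that they had been reprogrammed by both routes. All 3 reprogrammed types shared the C57B6/129SvJae F1 background of the MEFs, and the ESCs did not. Every pluripotent type was grown with LIF on irradiated MEFs, so feeder RNA could be present in those libraries. The replicates of a type were separate RNA batches of a single line, which means that p-values measure the spread between such batches, and cell type, line and library cannot be told apart, nor strain in the comparisons with ESCs.

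A miRNA is cut from a hairpin with a 5p and a 3p arm, and bases 2 to 8 of the mature form, the seed, pair with target mRNAs. The 5 families are known for their high levels in brain. Among them miR-9 is known from neural progenitors, miR-124 is the classic miRNA of neurons, where it represses non-neuronal transcripts, and miR-128, miR-129 and miR-137 are enriched in neurons.

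Mature sequences from RefSeq (GRCm38.p6) were found for 9 of the 12 members, and not for miR-124-3p, miR-124-5p and miR-129-1-3p. They are printed to show which arms and copies the reads were assigned to, with the seed in capitals.
miR-9-5p: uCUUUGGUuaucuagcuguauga
miR-9-3p: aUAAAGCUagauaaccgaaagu
miR-128-3p: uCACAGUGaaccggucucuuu
miR-128-1-5p: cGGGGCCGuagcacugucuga
miR-128-2-5p: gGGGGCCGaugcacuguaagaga
miR-129-5p: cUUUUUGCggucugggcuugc
miR-129-2-3p: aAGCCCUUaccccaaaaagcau
miR-137-3p: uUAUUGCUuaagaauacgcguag
miR-137-5p: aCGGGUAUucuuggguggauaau
The 5p arms of miR-128-1 and miR-128-2 share the seed GGGGCCG but differ in the bases after it, so reads can be told apart there. No other members with a sequence shared a seed, and no other miRNA in the table with a RefSeq sequence carried any of these seeds. The arms of 1 family have different seeds.

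The miR-129 hairpins are printed because a 3p arm of this family had the largest difference of any member between reprogrammed cells and ESCs. The 5p arm and the 3p arm are in capitals.
Mir129-1: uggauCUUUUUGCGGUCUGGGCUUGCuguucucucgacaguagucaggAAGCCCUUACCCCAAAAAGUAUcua
Mir129-2: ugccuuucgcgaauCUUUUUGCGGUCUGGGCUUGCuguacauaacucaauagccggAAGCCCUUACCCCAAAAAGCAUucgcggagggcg
The 5p arm is the same in both hairpins, so the single miR-129-5p row cannot say which copy its reads came from. The 3p stretch marked in Mir129-1 is the 1 closest to miR-129-2-3p and differs from it by C20U, counted from 1 at the 5′ end of miR-129-2-3p. A read error or a trimmed end at that base could move a read from 1 copy to the other, and the split between miR-129-1-3p and miR-129-2-3p is therefore uncertain.

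In GRCm38.p6 the hairpins of miR-9, miR-128, miR-129 and miR-137 lie on 7 chromosomes. Positions of the miR-124 hairpins are not given here. Mir9-1 is at chr3:88215598-88215686 (+) in an intron of the lincRNA gene Gm3764, Mir9-2 at chr13:83738814-83738885 (+) in an exon of the lincRNA gene C130071C03Rik, and Mir9-3 at chr7:79505264-79505353 (+) in an intron of its host gene Mir9-3hg. Mir128-1 is at chr1:128202361-128202430 (+) in an intron of the protein-coding gene R3hdm1. Mir128-2 is at chr9:112118636-112118711 (-) in an intron of the protein-coding gene Arpp21. Mir129-1 is at chr6:29022619-29022691 (+) in an exon of the lincRNA gene Gm3294. Mir129-2 is at chr2:94241364-94241453 (-) in an intron of the lincRNA gene Mir670hg. Mir137 is at chr3:118433857-118433929 (+) in an exon of the noncoding gene Gm26871. The deposited table carried no coordinates, and the labels named the build mm8, so these positions are RefSeq's and not the study's. miR-9-5p, miR-9-3p and miR-128-3p are the same molecule from each of their copies, and their reads sum over them.

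Libraries held between 4863365 and 8608689 miRNA reads, recovered from the deposited values. The cell types were checked against marker miRNAs. The 24 rows of the pluripotent miR-290 and miR-302 clusters made up at most 0.00129% of the reads of any MEF library, with 13 rows at 0 in all of them, whereas ESCs held 10.2% to 12.2% and reprogrammed cells 13.52% to 20.8%. The 10 rows of fibroblast miRNAs (arms of miR-143, miR-145, miR-199a, miR-199b and miR-214) had reads in every library and summed to 6.56% to 9.96% in MEFs and 4.03% to 4.42% in ESCs. In iPSCs their sum was 2.13% to 2.33%, in NT-ESCs 6.05% to 6.14%, and in NT-iPSCs 6.18% to 7.14%. The arms of these fibroblast miRNAs did not move together: against ESCs, 5 rows were higher and 5 were lower in reprogrammed cells. miR-143-3p was the highest row in MEFs and ESCs (mean log2 values 21.3 and 19.8) but stood at 15.6 in reprogrammed cells. There miR-199a-3p and miR-199b-3p were highest, both at 18.8, beside 18.6 and 18.5 in MEFs. With such near-equal values the same reads may be counted in both. Against MEFs the other 8 rows were lower in reprogrammed cells, beside 40.4% of all miRNAs tested.

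The 12 neural miRNAs summed to a larger share of reads in reprogrammed cells than in ESCs, and this came from few of them. All 12 together took 0.180% to 0.202% of the miRNA reads of ESC libraries, 0.173% to 0.195% of MEF libraries and 0.342% to 0.532% of the 6 reprogrammed libraries. In reprogrammed cells miR-124-3p, miR-128-3p and miR-129-2-3p held most of these reads, while in ESCs and MEFs miR-9-5p did. Against ESCs, the mean of the 3 reprogrammed types was higher for 5 members (both miR-124 arms, miR-128-3p and both miR-129-3p copies) and lower for 6 (both miR-9 arms, both miR-128-5p copies, miR-129-5p and miR-137-3p). All 11 tested members passed limma's test at an adjusted p under 0.05, beside 82% of all miRNAs tested (44% higher and 38% lower), so a call by itself sets no member apart. Among the 5 higher ones, miR-129-1-3p entered the test only through the reprogrammed libraries. The median size of the difference over these 11 was 3.31 on the log2 scale of the deposited values, beside 2.00 over all tested miRNAs. The groups did not overlap for 9 of the 11, beside 71% of all tested.

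**Figure D1:**
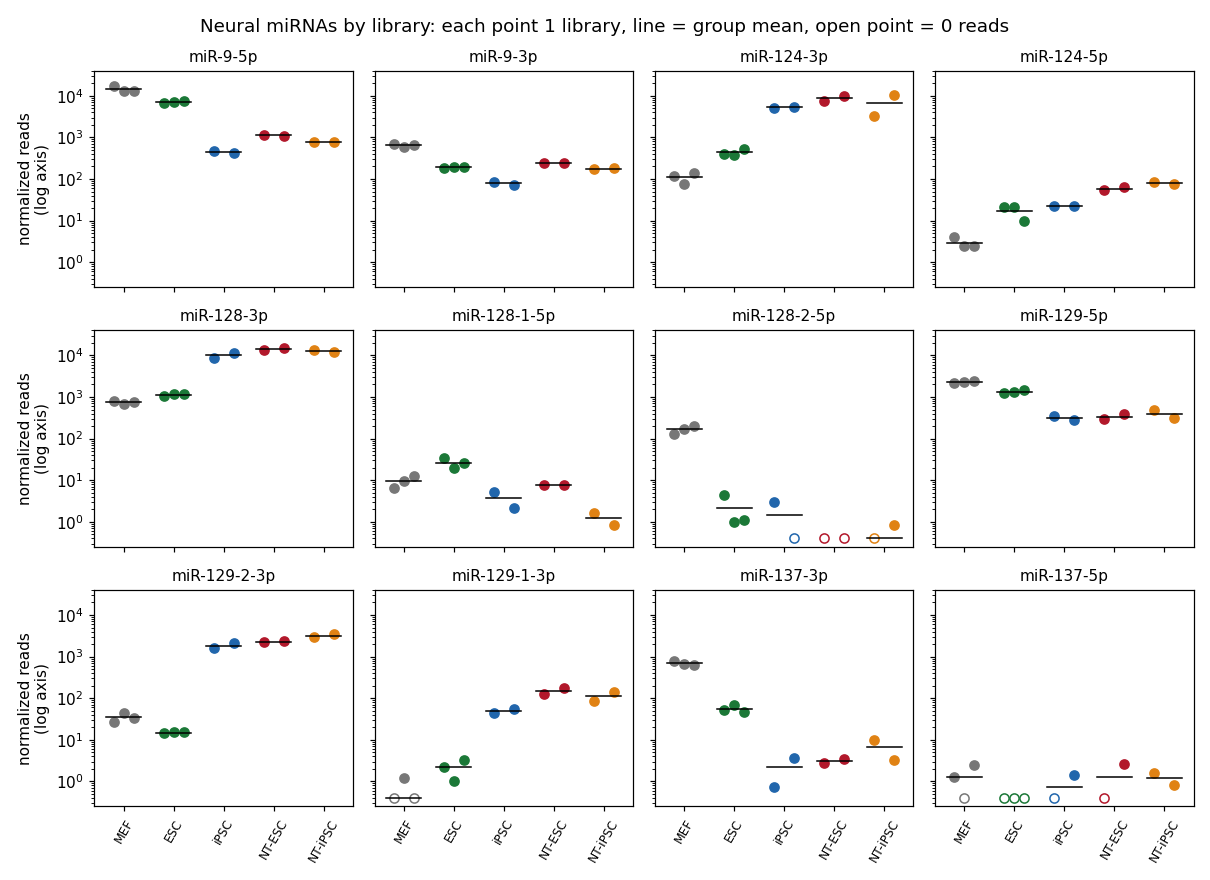
Normalized reads (recovered reads divided by the authors' size factor, log axis) of the 12 neural miRNAs in each library of the 5 cell types; each filled point is 1 library, an open point is a library with 0 reads, and the line is the group mean. The reprogrammed points of miR-124-3p, miR-128-3p and miR-129-2-3p lie above every ESC and MEF point, and those of miR-9-5p, miR-129-5p and miR-137-3p lie below them.

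mmu-miR-9-5p, the arm usually called miR-9, was the most abundant member in MEFs and ESCs. It had 13207, 10448 and 10110 reads in MEFs and 6108, 7171 and 6952 in ESCs. In iPSCs it had 639 and 568 reads, in NT-ESCs 1673 and 1240, and in NT-iPSCs 954 and 921. The 5 groups did not overlap after scaling by the authors' size factors, in the order MEF, ESC, NT-ESC, NT-iPSC, iPSC. As CPM, a share of each library's miRNA reads, MEFs (1534, 1328 and 1255) and ESCs (1256, 1243 and 1384) overlapped. The separation of MEFs from ESCs therefore depends on the scaling. Reprogrammed cells were lower than ESCs, at -3.31 ± 0.12 (difference in mean log2 value ± SE, limma, adjusted p = 3.9e-10), with 0.107 times the normalized reads (95% counting interval 0.104 to 0.111). MEFs were higher than ESCs by 0.97 ± 0.14 (limma, adjusted p = 6.5e-05), a difference that ranged from 0.465 to 1.61 over the alternatives. Neighbours in the order differed except NT-ESCs and NT-iPSCs (adjusted p = 0.0611).

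mmu-miR-9-3p, the opposite arm and formerly the star form, followed a flatter course. Its normalized reads were 702.1, 584.8 and 641.3 in MEFs, 186.1, 199.2 and 191.7 in ESCs, 86.63 and 71.78 in iPSCs, 237.6 and 237.9 in NT-ESCs, and 175.8 and 181.3 in NT-iPSCs. MEFs were above every other library, and the ESC values lay inside the range of the reprogrammed ones. The difference of reprogrammed cells from ESCs was -0.36 ± 0.13 (limma, adjusted p = 0.0212), and it lost its call without ESC library 3 (-0.33, adjusted p = 0.0676) and with upper quartile scaling (-0.145, adjusted p = 0.317). iPSCs alone were lower than ESCs (-1.28 ± 0.16, adjusted p = 2.36e-05), NT-ESCs had a difference of 0.31 ± 0.16 (adjusted p = 0.109) and NT-iPSCs of -0.11 ± 0.16 (adjusted p = 0.562).

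mmu-miR-124-3p, the functional arm in neurons, was low in MEFs and high in reprogrammed cells. Its normalized reads were 120.7, 74.47 and 136.1 in MEFs and 409.3, 383.4 and 522.1 in ESCs, on 61 to 108 and 363 to 482 recovered reads. In recovered reads iPSCs had 6879 and 7496, NT-ESCs 11055 and 11185, and NT-iPSCs 3905 and 12386. The lowest reprogrammed library, NT-iPSC library 51, was above every ESC library, and the ESCs were above every MEF library. Reprogrammed cells exceeded ESCs by 3.88 ± 0.32 (limma, adjusted p = 3.85e-07), 15.6 times in normalized reads (counting interval 14.8 to 16.5), and MEFs were lower than ESCs, at -2.01 ± 0.37 (adjusted p = 0.000401). The NT-iPSC pair spread over a log2 SD of 1.19, and neither NT type was separated from iPSCs (adjusted p = 0.277 and 0.88).

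miR-124-5p, the opposite arm, was a minor form throughout. It had 3, 2 and 2 reads in MEFs, 19, 21 and 9 in ESCs, 31 and 31 in iPSCs, 78 and 73 in NT-ESCs, and 104 and 91 in NT-iPSCs. MEFs were below ESCs and every reprogrammed library was above the ESCs. The difference between reprogrammed cells and ESCs was 1.496 ± 0.29 (limma, adjusted p = 0.000531). iPSCs on their own were not separated from ESCs (0.45 ± 0.37, adjusted p = 0.29).

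mmu-miR-128-3p, made from both Mir128 hairpins, became the most abundant member in reprogrammed cells. It had 622, 547 and 611 reads in MEFs and 932, 1192 and 1079 in ESCs. In iPSCs it had 11763 and 15990, in NT-ESCs 19055 and 17067, and in NT-iPSCs 16182 and 14852. All 6 reprogrammed libraries were above all ESC and MEF libraries. The excess over ESCs was 3.42 ± 0.13 (limma, adjusted p = 3.82e-10), 10.8 times in normalized reads (counting interval 10.4 to 11.1). MEFs were lower than ESCs, at -0.60 ± 0.14 (adjusted p = 0.0027), but with upper quartile scaling the sign turned (0.04, adjusted p = 0.81).

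The 5p arms of miR-128 were scarce and told the copies apart. miR-128-1-5p, from Mir128-1 in R3hdm1, had 5, 8 and 10 reads in MEFs, 30, 20 and 24 in ESCs, 7 and 3 in iPSCs, 11 and 9 in NT-ESCs, and 2 and 1 in NT-iPSCs. ESCs were above every other library. Reprogrammed cells were lower than ESCs, at -2.76 ± 0.35 (limma, adjusted p = 1.89e-05). miR-128-2-5p, from Mir128-2 in Arpp21, had 101 to 158 reads in the 3 MEF libraries (132.5, 168.5 and 199.1 normalized reads), 4, 1 and 1 in ESCs, 4 and 0 in iPSCs, 0 and 0 in NT-ESCs, and 0 and 1 in NT-iPSCs. It passed the filter on reads through the MEF libraries alone, so its difference from MEFs follows in part from the filter. MEFs had 78.3 times the normalized reads of ESCs (counting interval 35.6 to 215) and were at least 144-fold higher than NT-ESCs, taking a floor of 3 reads over the NT-ESC group. Against ESCs, reprogrammed cells differed by -1.90 ± 0.73 (adjusted p = 0.032), a call that ended under 7 of 19 alternatives (range -2.46 to -1.03), among them the fits without ESC library 2, iPSC library 63, either NT-ESC library or NT-iPSC library 51, and the ratio of their reads, 5 against 6, had a counting interval of 0.0730 to 1.19. MEFs held 0.0495 to 0.0633 reads of the Mir128-1 form for each read of the Mir128-2 form, whereas in ESCs the Mir128-1 form had the more reads in all 3 libraries; with so few reads in ESCs and reprogrammed cells the copy ratio was not tested.

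mmu-miR-129-5p, common to both hairpins, was highest in MEFs and lowest in reprogrammed cells. It had 1624, 1922 and 1909 reads in MEFs and 1106, 1303 and 1372 in ESCs. In normalized reads it stood at 2131 to 2405 in MEFs, 1247 to 1486 in ESCs, 342.1 and 287.9 in iPSCs, 288.9 and 385.7 in NT-ESCs, and 484.8 and 317.1 in NT-iPSCs. All reprogrammed libraries were below all ESC libraries, which were below all MEF libraries. Reprogrammed cells were lower than ESCs, at -1.96 ± 0.16 (limma, adjusted p = 3.57e-07). The excess of MEFs over ESCs, 0.77 ± 0.18 (adjusted p = 0.00255), was not called with TMM-type scaling or with clean reads as library size.

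mmu-miR-129-2-3p, the opposite arm, moved the other way and had the largest difference of all tested members between reprogrammed cells and ESCs. MEFs had 21, 37 and 27 reads and ESCs 13, 15 and 14. iPSCs had 2155 and 2830 reads, NT-ESCs 3199 and 2713, and NT-iPSCs 3563 and 4134. The reprogrammed libraries stood apart from the rest, and MEFs stood above ESCs. Reprogrammed cells exceeded ESCs by 7.24 ± 0.17 (limma, adjusted p = 3.63e-11), 161 times in normalized reads (counting interval 119 to 223). They exceeded MEFs by 6.05 ± 0.17 (adjusted p = 2.4e-11).

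miR-129-1-3p, its near copy, was nearly absent from MEFs and ESCs. It had 0, 1 and 0 reads in MEFs and 2, 1 and 3 in ESCs, against 59 and 76 in iPSCs, 181 and 200 in NT-ESCs, and 103 and 170 in NT-iPSCs. It too was higher in all reprogrammed libraries, by 5.14 ± 0.54 over ESCs (limma, adjusted p = 3.22e-06), or 47.7 times in normalized reads (counting interval 21.8 to 130). A MEF library without this form allowed up to 0.373 CPM (3 reads of its total, scaled to CPM). It passed the filter on reads through the reprogrammed libraries alone, so its excess there follows in part from the filter.

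mmu-miR-137-3p, the main arm of miR-137, was well covered in MEFs and near 0 in reprogrammed cells. It had 600, 546 and 487 reads in MEFs, 45, 69 and 43 in ESCs, 1 and 5 in iPSCs, 4 and 4 in NT-ESCs, and 12 and 4 in NT-iPSCs. The MEF, ESC and reprogrammed libraries formed 3 ranges with no overlap. Reprogrammed cells were lower than ESCs, at -3.83 ± 0.39 (limma, adjusted p = 2.87e-06) and had 0.0693 times the normalized reads (counting interval 0.0453 to 0.103). Against MEFs the difference was -7.46 ± 0.39 (adjusted p = 5.08e-09). No reprogrammed type was separated from another in the fit to all libraries (adjusted p = 0.0888 to 0.435). The difference of NT-iPSCs from iPSCs was 1.42 there and moved between 0.58 and 2.27 over the alternatives. miR-137-5p had between 0 and 3 reads in every library, with 0 in all 3 ESC libraries, and gave no usable comparison.

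**Figure D2:**
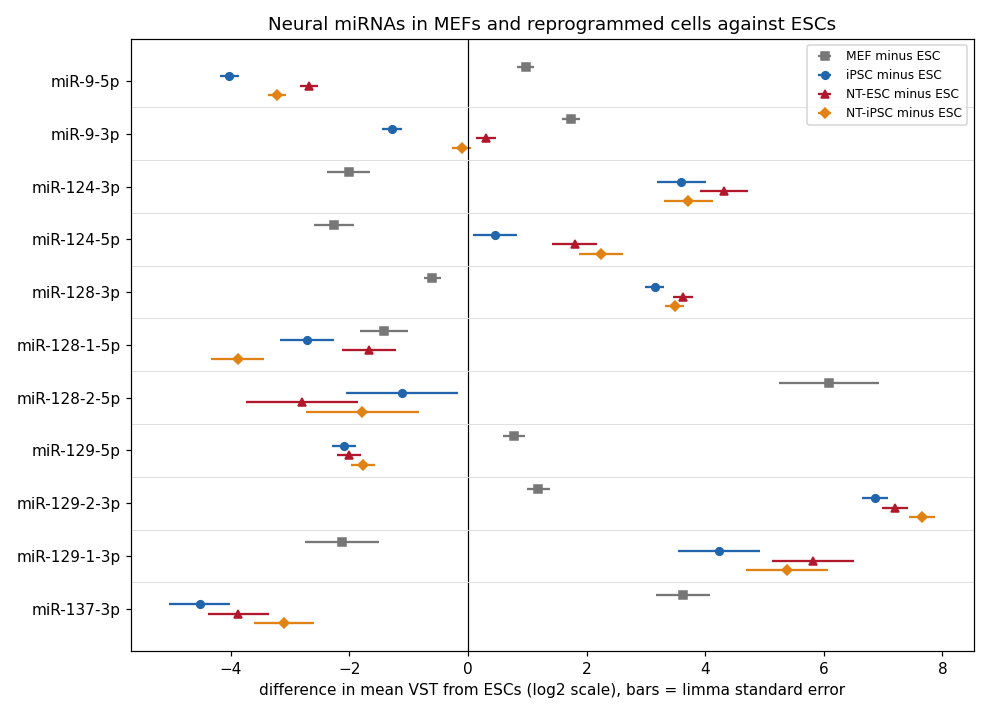
Difference from ESCs in the mean deposited log2 value (x axis) of the 11 tested neural miRNAs in MEFs and the 3 reprogrammed types; points are estimates and bars are limma standard errors, and all 4 comparisons share the ESC libraries. miR-129-2-3p lies at 6.86 to 7.66 in the 3 reprogrammed types and at 1.19 in MEFs.

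Each reprogrammed type was also set against ESCs on its own, with the ESC libraries shared by the 3 comparisons. In iPSCs 9 of the 11 tested members were called (4 higher, 5 lower), beside 75.8% of all miRNAs. In NT-ESCs 10 were called (5 higher, 5 lower), beside 75.8%, of which miR-128-2-5p was not called without ESC library 2 or either NT-ESC library (-2.80 to -2.26), and in NT-iPSCs 9 (5 higher, 4 lower), beside 77.6%. The higher ones include, in each type, miR-129-1-3p (4.24, 5.82 and 5.38), which passed the filter on reads through the reprogrammed libraries alone. miR-129-2-3p was higher by 6.86 (iPSCs), 7.20 (NT-ESCs) and 7.66 (NT-iPSCs). miR-137-3p was lower by -4.53, -3.87 and -3.10 in the same order. miR-128-3p was higher by 3.15, 3.63 and 3.49.

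MEFs, the starting cells, differed from ESCs in all 11 tested members, 6 higher and 5 lower, beside 79% of all miRNAs (39.1% higher and 39.9% lower). The median size of these differences was 1.73 for the members and 1.74 over all miRNAs. The split of all miRNAs became 352 higher and 231 lower with upper quartile scaling, 204 and 336 with TMM-type scaling and 232 and 315 with clean reads, and the median of all differences went from 0 to 0.55, -0.435 and -0.27. Of the members, miR-128-3p (0.04) and miR-128-1-5p (-0.81, adjusted p = 0.092) were not called with upper quartile scaling, miR-129-5p with TMM-type scaling (0.26) or clean reads (0.45), nor miR-129-1-3p with voom (-1.46, adjusted p = 0.0726). miR-137-3p (3.63 ± 0.46) and miR-128-2-5p (6.09 ± 0.85) were the members furthest above ESCs, and miR-124-5p (-2.26 ± 0.33) and miR-129-1-3p (-2.12 ± 0.62) the furthest below. miR-128-2-5p is counted here although it passed the filter on reads through the MEF libraries alone. miR-129-1-3p rested on 1 read against 6, with overlapping groups and a counting interval of 0.00429 to 1.63 for the ratio.

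Against MEFs, the reprogrammed types together were higher in 5 members and lower in 6, all 11 called beside 88.9% of all miRNAs (48.5% higher and 40.4% lower). Both miR-124 arms, miR-128-3p and both miR-129-3p copies were the higher ones, and their differences ran from 3.76 for miR-124-5p to 7.26 for miR-129-1-3p. The lower ones ran from -1.34 for miR-128-1-5p to -7.99 for miR-128-2-5p, with miR-9-5p at -4.28 ± 0.12. Of the outermost values, those of miR-129-1-3p and miR-128-2-5p belong to members that passed the filter on reads only through the group where they were high, and both are among the 11. Without them the outermost values were 6.05 for miR-129-2-3p and -7.46 for miR-137-3p. The median size was 4.28, beside 2.75 over all miRNAs.

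Fewer members were called between the reprogrammed types. Between NT-ESCs and iPSCs 3 members were called, all higher in NT-ESCs, beside 25.7% of all miRNAs (12.6% higher). They were miR-9-3p (1.58 ± 0.18, limma, adjusted p = 0.000266), miR-9-5p (1.34 ± 0.17, adjusted p = 0.000406) and miR-124-5p (1.34 ± 0.41, adjusted p = 0.0339, not called without any 1 of the 4 libraries, at 1.22 to 1.46, nor with clean reads as library size). NT-iPSCs were higher than iPSCs in 4 members, beside 26.5% called and 13.4% higher, namely miR-124-5p (1.79 ± 0.41, adjusted p = 0.00781), miR-9-3p (1.17 ± 0.18, adjusted p = 0.000732), miR-9-5p (0.80 ± 0.17, adjusted p = 0.00571) and miR-129-2-3p (0.80 ± 0.24, adjusted p = 0.0308). The last was not called without iPSC library 62 or either NT-iPSC library (0.61 to 0.92), nor with clean reads as library size (0.52, adjusted p = 0.146). Between NT-iPSCs and NT-ESCs 1 member was called, beside 12.8% (7.24% lower). This was miR-128-1-5p, lower in NT-iPSCs (-2.22 ± 0.50, adjusted p = 0.0216), on 3 reads against 20, and was not called without either NT-ESC library or NT-iPSC library 52 (-2.24 to -1.89).

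Fibroblast miRNAs moved with the higher miR-9 arms in the NT types. Of the 10 fibroblast rows, 9 were higher in NT-ESCs than in iPSCs and all 10 in NT-iPSCs than in iPSCs (medians 1.799 and 2.01). Among them miR-143-3p was higher by 1.33 in NT-ESCs and by 1.60 in NT-iPSCs, beside miR-9-5p differences of 1.34 and 0.80. Of the 23 tested pluripotent rows, 5 were lower and 2 higher in NT-ESCs than in iPSCs and 7 lower and 2 higher in NT-iPSCs than in iPSCs, among them miR-302a-3p (-2.40 and -2.60) and miR-302d-3p (-2.33 and -2.45). The part of these differences in the miR-9 values was not tested. In these bulk libraries fewer cells of a type and less RNA per cell cannot be told apart, and the part of feeder RNA in the miR-9 and miR-137 values was likewise not tested. With clean reads as library size the split of all miRNAs between NT-iPSCs and iPSCs went from 98 higher and 96 lower to 71 and 156, and between NT-ESCs and iPSCs from 92 and 96 to 67 and 127.

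The ratio of the arms within a library does not depend on scaling, and it was measured for each family as log2 of 5p reads over 3p reads, with 1 read added to each. For miR-129 the arm with more reads changed. MEFs had ratios of 6.21, 5.62 and 6.09 and ESCs 6.11, 6.26 and 6.25, so that 50.6 to 81.4 miR-129-5p reads stood against each 3p read of either copy. iPSCs had -2.25 and -2.88, NT-ESCs -3.02 and -2.72, and NT-iPSCs -2.63 and -3.49. In those 6 libraries 0.0890 to 0.2105 5p reads stood against each 3p read, and their values did not overlap the others. The reprogrammed mean minus the ESC mean was -9.04 (two-sided exact permutation test over 6 and 3 libraries, p = 0.0119, the smallest that the 84 arrangements allow, 0.0149 after Benjamini-Hochberg adjustment over the 5 ratios tested).

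**Figure D3:**
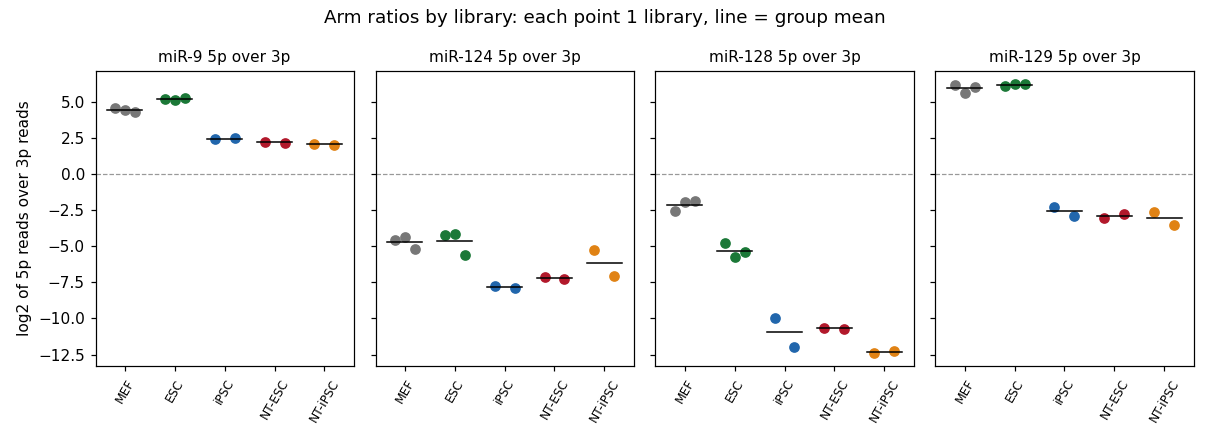
Log2 ratio of 5p to 3p reads (y axis) of miR-9, miR-124, miR-128 and miR-129 in each library, grouped by cell type; points are libraries, lines are group means and the dashed line marks equal reads. Only for miR-129 do the groups lie on different sides of the dashed line, with ESCs at 6.11 to 6.26 and reprogrammed libraries at -3.49 to -2.25.

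miR-9 kept its 5p arm ahead but by less. MEF ratios were 4.31 to 4.62 and ESC ratios 5.16 to 5.29. Reprogrammed cells had 2.07 to 2.52, with no overlap. The shift from ESCs was -2.95 (exact permutation p = 0.0119, adjusted 0.0149). In counts, ESCs had 36.0 to 39.3 5p reads for each 3p read and reprogrammed cells 4.205 to 5.796.

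miR-128 and miR-124 kept the 3p arm ahead, and by more. For miR-128, with both 5p copies summed, MEF ratios were -2.54 to -1.86 and ESC ratios -5.76 to -4.74. Reprogrammed cells had -12.40 to -9.94, a shift of -6.03 from ESCs (exact permutation p = 0.0119, adjusted 0.0149). Their ratios rested on 2 to 11 summed 5p reads per library, against 11763 to 19055 3p reads, so the size of this shift is uncertain. For miR-124, MEF ratios were -5.18 to -4.37 and ESC ratios -5.59 to -4.13, beside -7.87 to -5.22 for the reprogrammed libraries. Here ESC library 4 and NT-iPSC library 51 overlapped, and the shift was -2.41 (exact permutation p = 0.0238, adjusted 0.0238). Without ESC library 2 or 3 the shift was -2.19 or -2.16 and the adjusted p 0.0714.

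Between the near copies of miR-129-3p, ESCs had 0.0667 to 0.2143 reads of miR-129-1-3p for each read of miR-129-2-3p and reprogrammed cells 0.0269 to 0.0737, and these ranges overlapped. As log2 ratios with 1 read added, like the other ratios, they did not overlap (-3 to -1.91 and -5.20 to -3.76), with a shift of -2.28 (exact permutation p = 0.0119, adjusted 0.0149). The ESC ratios rested on 1 to 3 reads of miR-129-1-3p, so that the separation depends on the added read, and no difference in the split between the copies is read from it. MEFs had 0 or 1 such read. The 5p to 3p ratio of miR-137 was not tested, because too few reads were left in reprogrammed cells.

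Shifts of arm ratio were common in this table. Among hairpin names with both arms and enough reads, 71.9% had ratios that did not overlap between reprogrammed cells and ESCs. For 40 names (13.6%), the arm ahead in every ESC library was behind in every reprogrammed library. Names that changed side only in the means, such as miR-150 (1.53 in ESCs and -0.06 in reprogrammed cells), are not among them. The median size of the shift was 2.22 between reprogrammed cells and ESCs and 0.71 between MEFs and ESCs. The -2.95 of miR-9 and the -2.41 of miR-124 lay near that median, with shifts at least as large in 119 names (40.3%) and 141 (47.8%). The -6.03 of miR-128 was reached in size by 28 names (9.49%) and the -9.04 of miR-129 by 4 (1.36%). The 6 reprogrammed libraries and the 6 ESC and MEF libraries were separate libraries of separate lines, so for these ratios too the cells and the library preparation cannot be told apart.

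**Figure D4:**
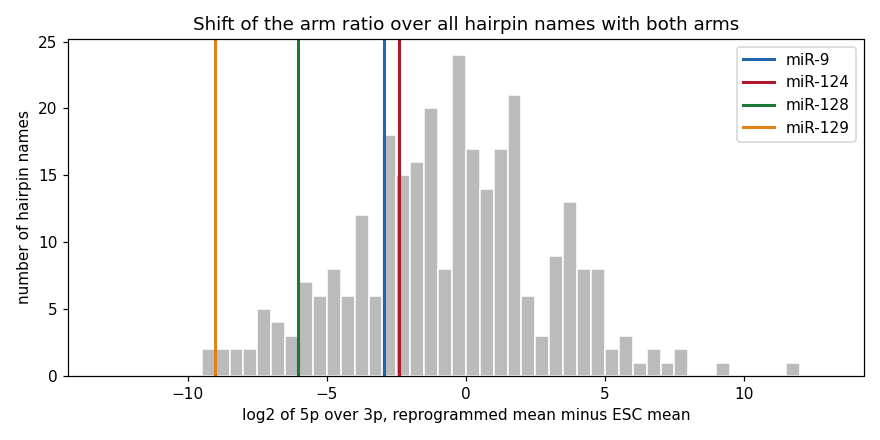
Number of hairpin names (y axis) by the shift of log2 5p over 3p reads between the reprogrammed mean and the ESC mean (x axis). Coloured lines mark miR-9, miR-124, miR-128 and miR-129, where miR-128 and miR-129 are summed copies and not among the names counted. The lines for miR-9 (-2.95) and miR-124 (-2.41) fall within the body of the distribution and that of miR-129 (-9.04) near its lower end.

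Members of 1 family did not always share a course over the 12 libraries. Pearson's r of the deposited values, given as a description over libraries that share groups, was 0.90 between miR-124-3p and miR-129-2-3p, 0.97 between miR-124-3p and miR-128-3p, and 0.97 between miR-9-5p and miR-129-5p. It was -0.92 between miR-129-5p and miR-129-2-3p, arms of 1 hairpin family. Outside the 12, the miRNA most like each tested member was miR-25-3p for miR-128-3p (r = 0.996), miR-598-3p for miR-129-2-3p (0.996), miR-143-3p for miR-9-5p (0.992) and miR-214-5p for miR-137-3p (0.990). For miR-129-5p it was miR-322-5p (0.986) and for miR-124-3p miR-25-5p (0.983). The other 5 were miR-181a-2-3p for miR-9-3p (0.959), miR-92a-1-5p for miR-124-5p (0.944), miR-301b-3p for miR-128-1-5p (0.946), miR-377-3p for miR-128-2-5p (0.970) and miR-92b-3p for miR-129-1-3p (0.9751). miR-143-3p and miR-214-5p are 2 of the 10 fibroblast rows.

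Further neural miRNAs were taken from a list of 18 families, among them miR-7a, miR-132, miR-218 and miR-598, with 40 rows in the table and 31 tested. Reprogrammed cells were higher than ESCs in 16 and lower in 8, and 7 were not called, beside 44% and 38% of all miRNAs tested, with a median of 0.60 beside 0.24. MEFs were higher than ESCs in 19 and lower in 4, beside 39.1% and 39.9%, with a median of 2.56 beside 0 over all miRNAs. Against MEFs, reprogrammed cells were higher in 8 and lower in 19, beside 48.5% and 40.4%. The list held both directions in each of these comparisons. As a sum, its 40 rows took 1.097% to 1.418% of miRNA reads in ESC libraries and 0.2943% to 0.5054% in reprogrammed libraries, and 0.2743% to 0.3639% in MEF libraries. miR-7a-5p held most of this sum, with 95.4% to 96.6% of it in ESCs, 70.8% to 76.8% in MEFs and 67.2% to 79.8% in reprogrammed cells. Without miR-7a-5p the other 39 rows took 0.0457% to 0.0583% in ESCs, 0.0800% to 0.0846% in MEFs and 0.0940% to 0.110% in reprogrammed cells, so the order of ESCs and reprogrammed cells turned on that 1 row.

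The smallest p-values in each direction belonged to 4 of these miRNAs. miR-598-3p, a brain-enriched miRNA, had 53, 57 and 46 reads in MEFs, 35, 42 and 32 in ESCs, and 2656 to 4732 in reprogrammed cells, a difference from ESCs of 6.06 ± 0.15 (limma, adjusted p = 3.63e-11). miR-219-1-3p, the opposite arm of a miRNA known from oligodendrocytes, had 56, 43 and 54 reads in ESCs and 694 to 1205 in reprogrammed cells (3.75 ± 0.15, adjusted p = 9.67e-10). Both had no overlap between these groups. miR-218-5p, known from motor neurons, had 200.7, 208.2 and 165.7 normalized reads in ESCs and 15.73 to 23.49 in reprogrammed cells (-3.33 ± 0.18, adjusted p = 8.65e-09), with 2290, 1829 and 1798 in MEFs. miR-132-3p, an activity-regulated neuronal miRNA, had 374, 394 and 373 reads in ESCs and 57 to 190 in reprogrammed cells (-2.46 ± 0.15, adjusted p = 2.33e-08), with 1823, 1891 and 2208 in MEFs.

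**Figure D5:**
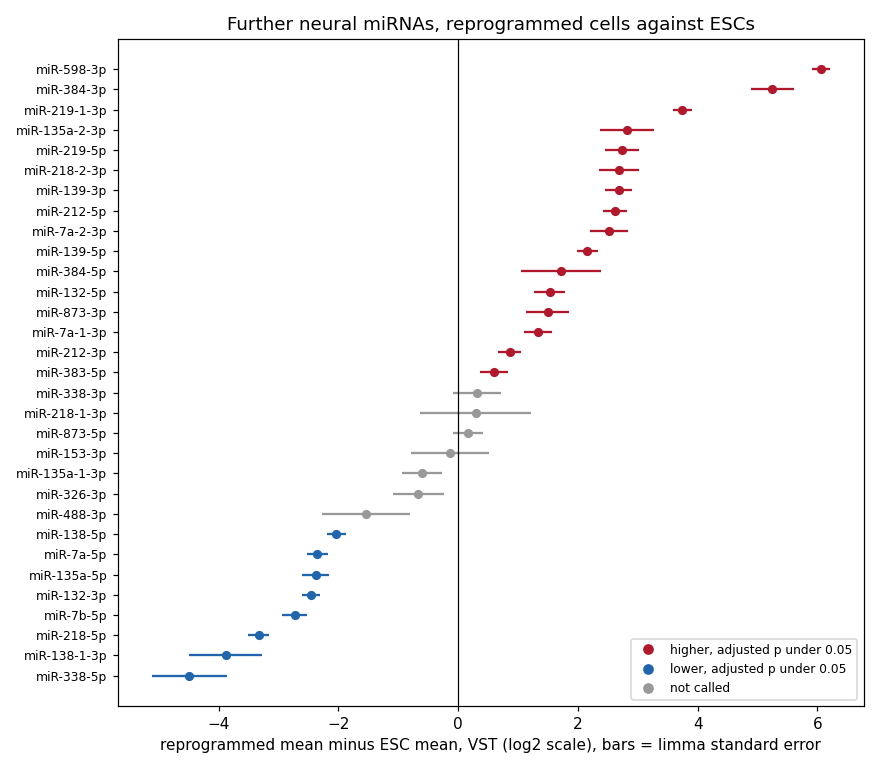
Difference in mean log2 value between reprogrammed cells and ESCs (x axis) for the 31 tested rows of the further neural list, with limma standard errors; red and blue mark rows called higher (16) and lower (8), and grey rows not called (7). miR-598-3p lies highest at 6.06, and arms of 1 family such as miR-132 and miR-218 appear on both sides of 0.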

How the data were processed

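Small RNAs were sequenced in 12 mouse libraries. Per the study's methods, the authors cleaned and annotated the reads, scaled those of miRNAs and applied the variance stabilizing transformation (VST) of DESeq. The deposited values are 1 log2 value per miRNA and library on that scale, which compresses low values. The labels name the build mm8, and the aligner and miRNA release are not given in the sources used here. Because the table holds transformed values, no count test was run on it. The transformation was inverted: 100% of nonzero values came out whole within 0.05 read, and the VST recomputed from them differed by at most 8.8e-07. Totals were 4863365 to 8608689 reads. Normalized reads are recovered reads divided by the authors' size factors.

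limma 3.58.1 (R 4.3.3) was fitted to the deposited values, as 5 group means, with trended empirical Bayes, two-sided tests and Benjamini-Hochberg adjustment over 732 miRNAs (2 or more libraries with 10 or more reads). The fit was tested on simulated data. Arm and copy ratios, computed in Python 3.11.15 with scipy 1.17.1, needed at least 10 reads of both forms together in every library tested. Intervals (95%, exact Clopper-Pearson) and floors of 3 reads cover counting error only. Alternatives were upper quartile, TMM-type and clean-read scaling, log2 with 1 read added, voom, other filters, a minimum difference of 1, fits restricted to the compared groups, the miR-129-3p copies summed, and each library left out.

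Named were every member, miRNAs sharing a seed with 1, the 2 further neural miRNAs with the smallest p in each direction, and the miRNAs most alike each member. The members and lists were chosen with earlier results of these data known. Host genes are from GENCODE annotation of GRCm38.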

Additional observations from a re-analysis of the deposited data

Results flagged for a closer look

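The difference from ESCs was not the same in all reprogrammed types for 5 members, by limma's test of 1 type against another (adjusted p under 0.05 over 732 miRNAs). Between NT-ESCs and iPSCs 3 of the 11 tested members were called, beside 25.7% of all miRNAs. The counts were 4 beside 26.5% between NT-iPSCs and iPSCs, and 1 beside 12.8% between NT-iPSCs and NT-ESCs. The 5 are members called in any of these comparisons, so no single share is its match. miR-9-5p was higher in NT-ESCs than in iPSCs by 1.34 and in NT-iPSCs than in iPSCs by 0.80, and miR-9-3p by 1.58 and 1.17. miR-124-5p was higher by 1.34 and 1.79 in the same comparisons, on 31 reads in each iPSC library, where the first was not called without any 1 of the 4 libraries (1.22 to 1.46) nor with clean reads as library size (1.15), while the second was called in each of its alternatives. miR-129-2-3p was higher in NT-iPSCs than in iPSCs by 0.80, not called without iPSC library 62 or either NT-iPSC library. miR-128-1-5p was lower in NT-iPSCs than in NT-ESCs (-2.22), on 2 and 1 reads against 11 and 9, not called without either NT-ESC library or NT-iPSC library 52. Each type was 2 libraries of 1 line.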

How the results depend on the processing

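No paired analysis was possible because no replicate number occurs in more than 1 group. Over the 11 tested members and 9 comparisons, 69 of 99 results were called, and of 1524 values under alternatives 1472 kept their side of the threshold and, where called, their direction, 36 lost a call and 15 gained 1. The 1 reversal was miR-128-3p in MEFs against ESCs, 0.0359 with upper quartile scaling. Counts of called members moved by over 1.5 times in these cases: NT-ESCs against iPSCs, 5 with voom (3 as reported); NT-iPSCs against iPSCs, 2 with a minimum difference of 1 (4 as reported); NT-iPSCs against NT-ESCs, 2 with clean reads as library size and 0 with at least 100 reads or only the groups compared (1 as reported). The cause was not tested. Leaving out 1 library gave 10 to 11 members for reprogrammed cells against ESCs, 11 for MEFs against ESCs, 2 to 4 for NT-ESCs against iPSCs, 3 to 5 for NT-iPSCs against iPSCs, and 0 to 1 for NT-iPSCs against NT-ESCs, with 0 without either NT-ESC library. The miR-124 arm shift ranged from -2.89 to -2.16, and was not called without ESC library 2 or 3; the arm shifts of miR-9, miR-128 and miR-129 kept their calls when a library was left out. Depth limits the copies and arms with few reads, miR-128-2-5p, miR-128-1-5p, miR-129-1-3p and miR-137-5p.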

Other observations

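Arms of several further neural miRNAs went in opposite directions between reprogrammed cells and ESCs, a pattern picked out after the values were seen. Of 11 names in the list with both arms tested, 4 had arms called in opposite directions (36.4%). This is near the share over all miRNAs tested, 89 of 289 names (30.8%), so it does not set the list apart. They were miR-7a, miR-132, miR-135a and miR-218. miR-132-3p was lower by -2.46 ± 0.15 and miR-132-5p higher by 1.53 ± 0.26 (limma, adjusted p = 2.33e-08 and 0.000186), though the latter overlapped ESCs and was not called in iPSCs alone (0.55, adjusted p = 0.155). miR-7a-5p, the most abundant row of the list, was lower by -2.35 ± 0.18, while miR-7a-1-3p was higher by 1.33 ± 0.23 and miR-7a-2-3p by 2.52 ± 0.32. miR-218-5p was lower by -3.33 ± 0.18 and miR-218-2-3p higher by 2.69 ± 0.33. For miR-139 both arms were higher, the 5p arm by 2.16 ± 0.18 and the 3p arm by 2.68 ± 0.22, and for miR-212 likewise, by 2.61 ± 0.20 and 0.86 ± 0.19.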
